A study of Mus musculus with 12 samples.

Results

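The immediate early genes described here are Fos, Fosb, Junb, Egr1, Egr2, Npas4, Nr4a1, Ier2, Arc and Dusp1. They were listed by name, and all 10 are among the 22317 gene symbols of the count table. Immediate early genes are transcribed within minutes of a stimulus, before any new protein has to be made, and their transcripts are short-lived. Kinase cascades and calcium act on them through factors already bound to their promoters, such as SRF, the ternary complex factors and CREB. In neurons they follow synaptic activity and are widely used as its marker, whereas in bone and marrow cells several of them answer growth factors, load and stress.

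The data are RNA-seq counts from 12 libraries of wild-type male BALB/c mice aged 8 weeks, with 3 libraries in each of 4 groups. The groups labelled SB2 and SB4 are described as brain cortex on day 2 and day 4 after an ischemic injury of the skull, and those labelled BS2 and BS6 as interparietal bone of the skull on day 2 and day 6 after an ischemic injury of the brain. Every mouse had thus been injured by photothrombosis, in which a laser lights the injected dye Rose Bengal until small vessels close, and uninjured tissue was not analysed here. The study's methods call the replicates biological but do not say whether each is 1 mouse or a pool, so a p-value measures the spread between these libraries only.

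Total counts ran from 14126082 to 18972654 per library. Levels are given as CPM, counts relative to library size, TMM-scaled over the 12 libraries, for replicates 1, 2 and 3 in that order. The tissue labels of SB2 and BS2 went against their marker genes. A sum over 8 neuronal markers was 8722 to 8827 CPM in SB4 and 8390 to 8700 CPM in BS2, against 41.9 to 77.6 CPM in the libraries labelled SB2 and 50.8 to 117 CPM in BS6. Col1a1, the main collagen of bone, was at 2.56 to 3.95 CPM in SB4 and 3.91 to 9.37 CPM in BS2, against at least 18663 CPM in every library of SB2 and BS6. SB4 and BS2 are therefore compared as the brain-rich pair, and SB2 and BS6 as the bone-rich pair. As labelled, the day, the injured site and the tissue change together within each pair and cannot be told apart. Whether the labels of SB2 and BS2 were exchanged is not given in the sources used here. If they were, each pair would hold 1 tissue after 1 kind of injury on an earlier and a later day. The names are kept as labelled throughout, and no difference below is assigned to the day or to the injury.

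In GENCODE M21 on GRCm38 (mm10), Fos lies at chr12:85473890-85477273 on the plus strand, Fosb at chr7:19302696-19310051 on the minus strand and Junb at chr8:84974484-84978718 on the minus strand. Egr2 lies at chr10:67535475-67542188 (plus), Npas4 at chr19:4984355-4990316 (minus) and Nr4a1 at chr15:101254269-101274795 (plus). Ier2 lies at chr8:84661331-84662852 (minus), Arc at chr15:74669083-74672570 (minus) and Dusp1 at chr17:26505590-26562128 (minus). Junb overlaps Prdx2 on the opposite strand, with which it shares a stretch of 176 bases. The annotated span of Dusp1 overlaps the opposite-strand gene Ergic1 and 3 non-coding entries. The strand setting of the counting is not given in the sources used here, so reads in these overlaps could have gone to either gene. The exons of the other 8 genes matched no other gene over 100 bases or more at 95% identity, and their spans overlapped none.

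The promoters are shown because these genes are known for answering the same signals. RefSeq sequence on GRCm38.p6, up to 250 bases before each annotated start, was read for 7 of the 10 genes and not for Egr1, Arc and Ier2. The letters TGACG, the core of the cAMP response element that CREB binds, stood on either strand in the windows of all 7 (Fos, Fosb, Junb, Egr2, Npas4, Nr4a1 and Dusp1; for Egr2 in 3 of its 5 start windows), against 17.8% of the 32851 windows of all genes. The full palindrome TGACGTCA, which contains TGACG, stood in the window of Dusp1 alone, against 1.55% of windows. The CArG box, which SRF binds, was matched for Egr2 alone, against 1.47% of windows, and the AP-1 letters TGANTCA in none of the 7, against 6.75%. Each match is a description of letters in a window and does not show binding. The stretches of 6 genes that hold the matches follow, 5′ to 3′ on the strand of the gene, with the matched letters in capitals (TGACG or its complement CGTCA, the palindrome in Dusp1 and the CArG boxes in Egr2, of which 1 stands in a window without TGACG). That of Npas4, chr19:4990121-4990165, holds 2 matches of TGACG and is not printed, since all of its 45 bases lie in annotated exons. Those printed lie outside annotated exons, at chr12:85473746-85473843 for Fos, chr7:19310086-19310120 for Fosb, chr8:84978835-84978869 for Junb, chr10:67537479-67537518 and chr10:67537743-67537833 for Egr2, chr15:101266598-101266825 for Nr4a1 and chr17:26508593-26508678 for Dusp1. Those of Egr2, Nr4a1 and Dusp1 are intronic in the annotated gene and lie before an internal start.
Fos: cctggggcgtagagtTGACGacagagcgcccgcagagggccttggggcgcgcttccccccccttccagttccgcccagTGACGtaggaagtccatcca
Fosb: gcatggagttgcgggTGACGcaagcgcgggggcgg
Junb: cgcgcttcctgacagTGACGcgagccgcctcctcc
Egr2, CArG box alone: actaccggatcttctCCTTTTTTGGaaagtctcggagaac
Egr2: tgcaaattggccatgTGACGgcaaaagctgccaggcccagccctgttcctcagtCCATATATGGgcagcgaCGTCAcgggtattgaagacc
Nr4a1: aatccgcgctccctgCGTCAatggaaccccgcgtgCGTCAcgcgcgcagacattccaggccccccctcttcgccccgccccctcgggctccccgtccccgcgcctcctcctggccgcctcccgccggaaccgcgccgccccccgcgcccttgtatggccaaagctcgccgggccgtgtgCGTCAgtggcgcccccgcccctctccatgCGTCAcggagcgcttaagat
Dusp1: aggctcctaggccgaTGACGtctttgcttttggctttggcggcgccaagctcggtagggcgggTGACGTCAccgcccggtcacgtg

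Between SB4 and BS2, the brain-rich pair, all 10 genes had a higher mean in SB4, by 0.53 to 1.90 on the log2 scale. The libraries did not overlap for 8 of the 10, all of them higher in SB4 (8.45% of the 16278 genes tested did so, and 8.48% were lower without overlap). Only Ier2 was called, which required an adjusted p below 0.05 together with a change of more than 1 on the log2 scale, where 0.086% of all genes were called higher and 0.0614% lower. Fosb passed the adjusted p with a smaller fold change (with Ier2, 2 of the 10, against 0.571% of all genes higher at this p alone). At an unadjusted p under 0.05, 8 of the 10 genes and 1933 of all genes (11.9%) passed. The median log2 fold change was 1.03 over the 10 genes and close to 0 (-0.0018) over all genes tested. In bulk tissue, fewer cells of a type and less RNA per cell cannot be told apart. Unless another tool is named, p-values here come from the quasi-likelihood test of edgeR, adjusted by Benjamini-Hochberg over all genes tested.

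**Figure D1:**
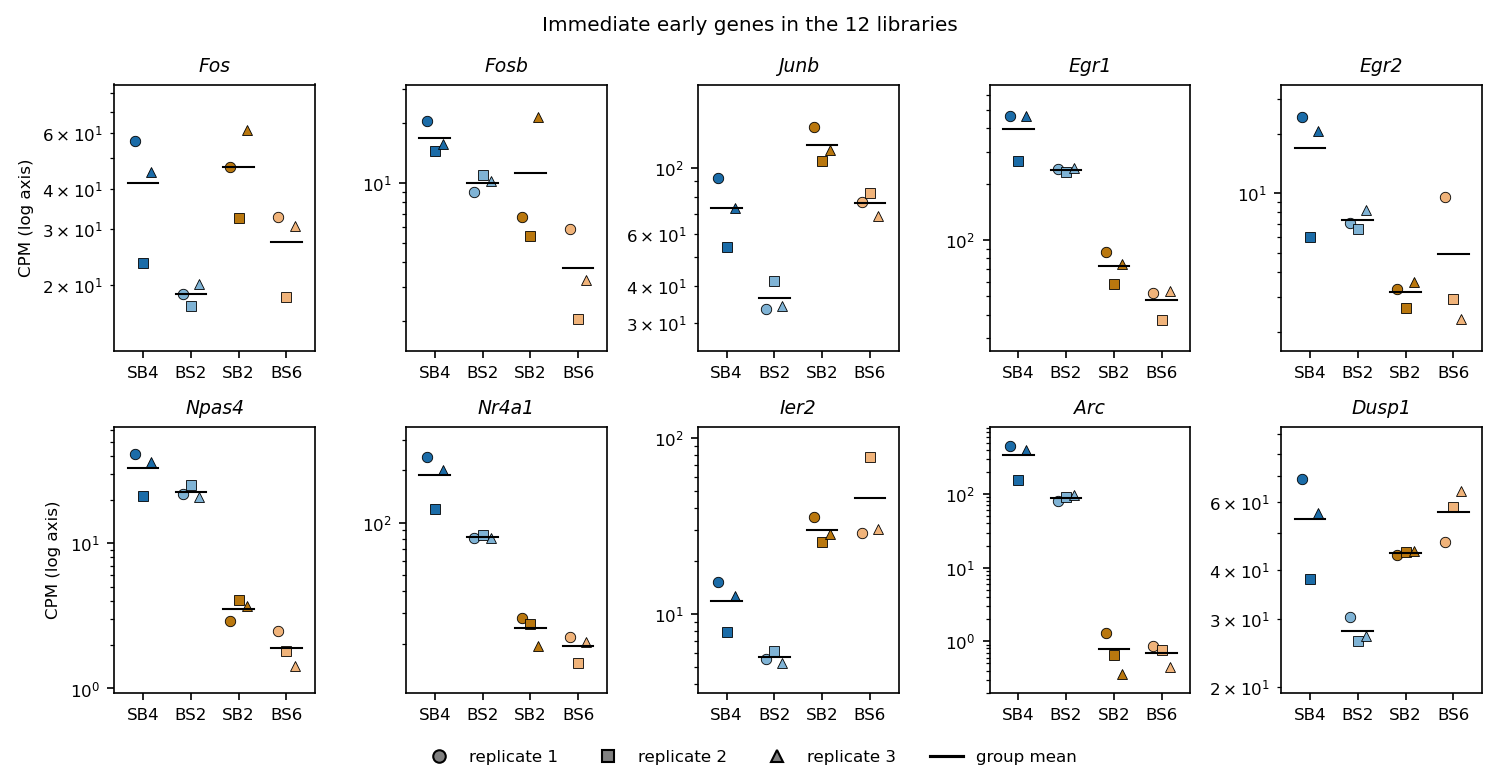
Level of each of the 10 genes in CPM (vertical log axes, each with its own range) in the 3 libraries of SB4, BS2, SB2 and BS6. Circles, squares and triangles are replicates 1, 2 and 3 and black bars are group means. SB4 replicate 2 is the lowest SB4 library for every gene, and Arc falls from 157 CPM or more in SB4 to 1.31 CPM or less in SB2 and BS6.

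Among the AP-1 genes, Fos, which encodes the partner that dimerises with Jun proteins, was at 56.6, 23.5 and 45.2 CPM in SB4 and at 18.8, 17.2 and 20.2 CPM in BS2. The lowest SB4 library was above the highest BS2 library, but SB4 spread widely (41.8 ± 16.8 CPM, SD, n = 3). Its log2 fold change of 1.15 (SE 0.38) had an adjusted p of 0.381. Fosb, a close relative of Fos whose truncated product is known to build up on repeated stimulation, was at 20.5, 14.6 and 15.7 CPM in SB4 and at 9.01, 11.0 and 10.2 CPM in BS2. These groups did not overlap either, and the log2 fold change of 0.75 (SE 0.13) passed the test at an adjusted p of 0.00606, the smallest of the 10. It did not pass without BS2 replicate 3 (adjusted p = 0.0538 by edgeR) or in the fit of all 12 libraries, where the SE was 0.48. Junb, a Jun protein that pairs with Fos, was at 92.5, 54.0 and 72.9 CPM in SB4 and at 33.4, 41.3 and 34.0 CPM in BS2. Again every SB4 library was above every BS2 library, with a log2 fold change of 1.01 (SE 0.24, adjusted p = 0.218).

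The zinc finger factors differed in how far SB4 replicate 2 stood from the other SB4 libraries. Egr1, which binds GC-rich promoters after growth factor or synaptic stimulation, was at 464, 266 and 466 CPM in SB4 and at 240.4, 234 and 246 CPM in BS2. All SB4 libraries were higher, replicate 2 by little, and the log2 fold change was 0.73 (SE 0.26, adjusted p = 0.399). Egr2, a relative of Egr1 known for its part in myelination and hindbrain patterning, was at 24.2, 6.02 and 20.6 CPM in SB4 and at 7.05, 6.63 and 8.25 CPM in BS2. Here SB4 replicate 2 lay below every BS2 library, so the groups overlapped, and the log2 fold change of 1.20 had an SE of 0.60 (adjusted p = 0.543).

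Npas4, a transcription factor of neurons that calcium influx induces, was at 41.4, 21.1 and 36.3 CPM in SB4 and at 21.9, 25.4 and 20.8 CPM in BS2. It overlapped in the same library and had the smallest log2 fold change of the 10, 0.53 (SE 0.29, adjusted p = 0.569). Nr4a1, an orphan nuclear receptor, was at 240.5, 120.3 and 200.4 CPM in SB4 and at 82.0, 84.4 and 81.5 CPM in BS2. The coefficient of variation was 1.88% in BS2 and 32.7% in SB4, and the log2 fold change of 1.18 (SE 0.29) had an adjusted p of 0.260. Ier2, a small nuclear protein of the early response, was at 15.1, 7.92 and 12.7 CPM in SB4 and at 5.57, 6.19 and 5.28 CPM in BS2. It rose in SB4 by 1.06 on the log2 scale (SE 0.21, adjusted p = 0.0286), the only call among the 10. The call of Ier2 was lost without BS2 replicate 1, 2 or 3 (adjusted p = 0.143, 0.0910 and 0.189 by edgeR). It was also lost without SB4 replicate 1, at 0.86, and in the fit of all 12 libraries, where the SE was 0.39.

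Of the other pair of genes, which act outside transcription, Arc encodes a capsid-forming synaptic protein that removes AMPA receptors. Its levels were 447, 157 and 404 CPM in SB4 and 80.4, 91.6 and 97.4 CPM in BS2. The groups did not overlap, and replicates 1 and 3 of SB4 stood 4.98 and 4.50 times above the BS2 mean, against 1.74 times for replicate 2. Arc had the largest log2 fold change of the 10, 1.90 (SE 0.47), with an adjusted p of 0.257. Dusp1, a phosphatase that switches MAP kinases off, was at 69.0, 37.9 and 56.2 CPM in SB4 and at 30.3, 26.2 and 27.0 CPM in BS2. Its groups did not overlap, with a log2 fold change of 0.96 (SE 0.25, adjusted p = 0.263).

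SB4 replicate 2 was the lowest SB4 library for 10 of the 10 genes, as it was for 34% of the 18068 genes tested over the 12 libraries. As a ratio to the BS2 mean, the median of the 10 genes was 2.61 in replicate 1, 2.13 in replicate 3 and 1.38 in replicate 2, where Egr2 (0.823) and Npas4 (0.928) lay below 1. The spread was in SB4 and not in BS2: coefficients of variation ran from 18.7% for Fosb to 56.8% for Egr2 in SB4 and from 1.88% to 12.1% in BS2. Without SB4 replicate 2, 7 of the 10 genes were called instead of 1, all higher: Fos, Junb, Egr2, Arc, Nr4a1, Ier2 and Dusp1. In that fit 25 of the 16534 genes tested were called higher (0.151%) and 16 lower (0.0968%). The log2 fold change of Arc was then 2.25 (SE 0.07, adjusted p = 6.9e-13) and that of Fos 1.44 (SE 0.11, adjusted p = 3.3e-08), from edgeR on 2 against 3 libraries. With all 6 libraries these adjusted p-values were 0.257 and 0.381 by edgeR. The library left out is the one lowest for these same genes, so its removal raises their SB4 means. The calls and p-values of this fit are therefore no support for a difference. Without BS2 replicate 1, 2 or 3, or without SB4 replicate 1, none of the 10 was called, and DESeq2 on all 6 libraries called 4, all higher (0.173% of all genes were higher and 0.101% lower), namely Junb, Arc, Nr4a1 and Ier2.

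**Figure D2:**
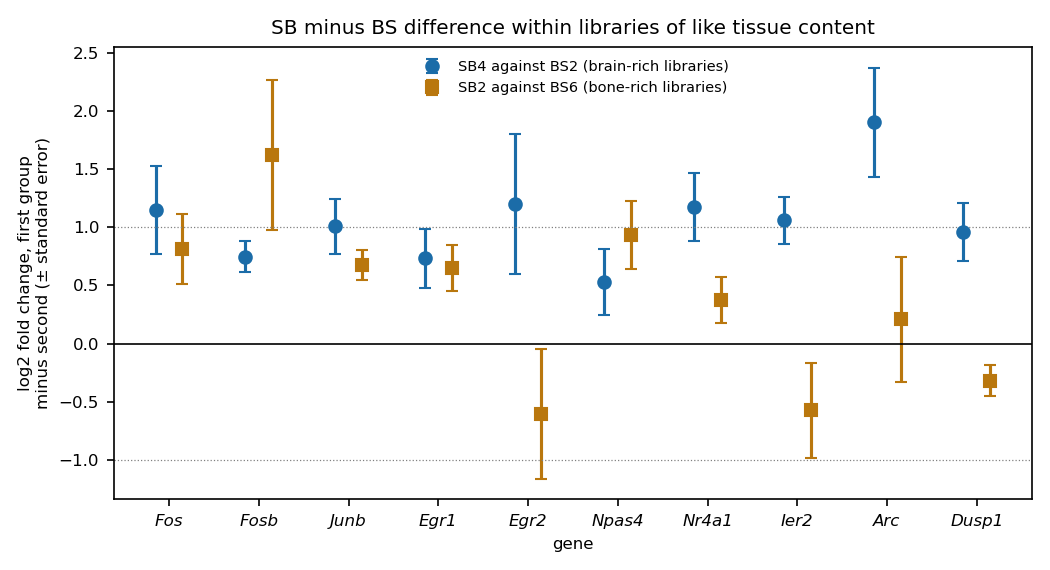
Log2 fold change of the 10 genes (vertical axis) in SB4 against BS2 and in SB2 against BS6, with bars of 1 SE, from edgeR; dotted lines mark a log2 fold change of 1 in either direction. In the brain-rich pair all 10 points lie above 0, from 0.53 for Npas4 to 1.90 for Arc, and in the bone-rich pair they lie on both sides, from -0.60 for Egr2 to 1.63 for Fosb.

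Cell type markers were read in the same libraries. In SB4 against BS2 the summed markers of cortical excitatory and inhibitory neurons, astrocytes, oligodendrocytes, microglia and macrophages, endothelium, and osteoblasts overlapped between the groups. The neuronal sum did not overlap and its means differed by 1.02-fold. Markers of striatal neurons were higher in SB4 (266 to 279 against 209.96 to 239 CPM, a ratio of 1.22) and those of hippocampus lower (213 to 231 against 246 to 280.1 CPM, a ratio of 0.85). The neutrophil lineage sum over 6 genes was 2.03 to 4.20 CPM in SB4 and 0.652 to 1.37 CPM in BS2, where Ly6g was at 0 in every library. Only 1 gene of that list, S100a9, passed the filter on low counts, and it was the one called of 97 markers tested between these groups. At the adjusted p alone, 4 other markers passed. Gfap, the astrocyte filament gene, was lower in SB4 (-0.62, adjusted p = 0.00013 by edgeR), as was the hippocampal marker Wfs1 (-0.37, adjusted p = 0.0144), while the striatal Pde10a (0.55, adjusted p = 0.0020) and the microglial C1qb (0.55, adjusted p = 0.0272) were higher. The sum of meninges and choroid plexus overlapped, at 8.46 to 20.6 CPM in SB4 and 14.6 to 39.1 CPM in BS2 (a ratio of 0.50). The part of these differences in the levels of the immediate early genes was not tested. In SB4 replicate 2 the neuronal sum was 8761 CPM, between those of replicates 1 and 3.

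**Figure D3:**
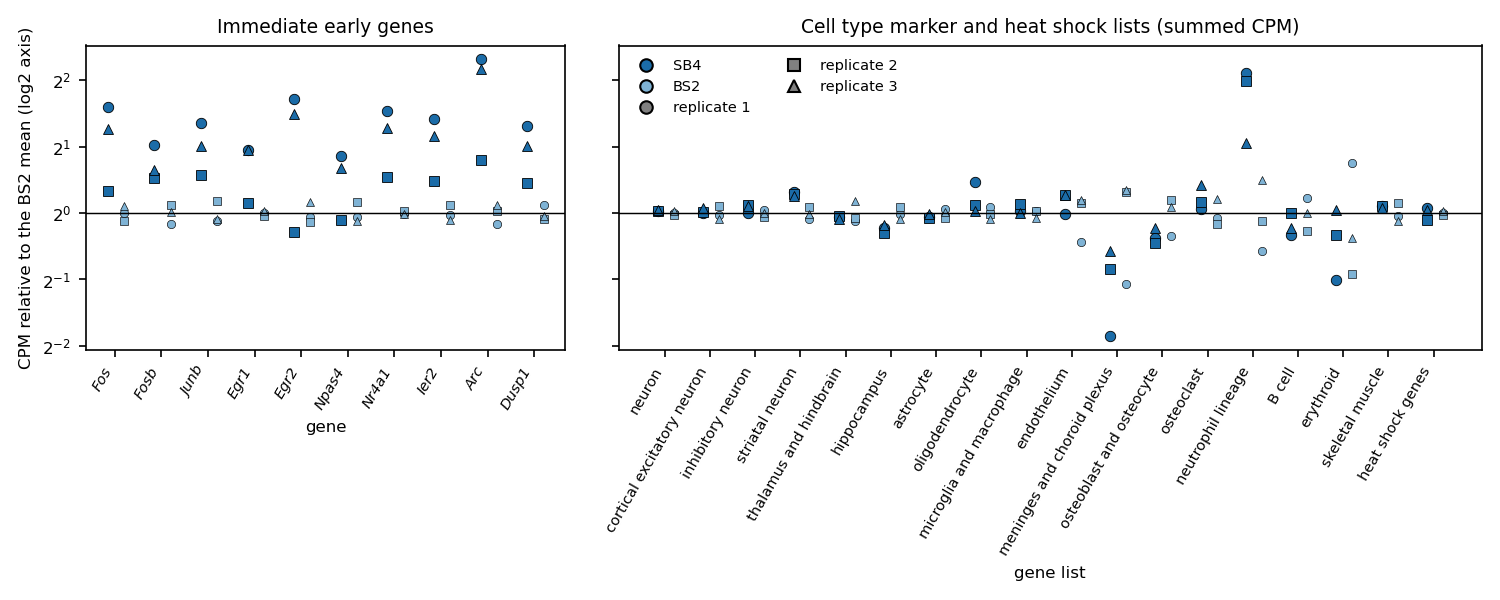
Level of each of the 10 genes and of 18 summed marker lists in the SB4 and BS2 libraries, divided by the BS2 mean (vertical log2 axis); circles, squares and triangles are replicates 1, 2 and 3. For 8 genes all SB4 points lie above all BS2 points, with replicate 2 the nearest, while the neuronal sums of SB4 lie within 1.02 to 1.03.

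The wider lists give the setting for these 10 genes. Of 43 other rapid response genes 42 were tested between SB4 and BS2 and none was called by edgeR (13 at an unadjusted p under 0.05, against 11.9% of all genes, and 2 called higher by DESeq2, against 0.173%), with a median log2 fold change of 0.14. Fosl2, another Fos relative, passed the adjusted p with a smaller fold change: it was at 60.3, 47.5 and 52.9 CPM in SB4 and at 32.1, 32.1 and 33.0 CPM in BS2 (log2 fold change 0.72, SE 0.08, adjusted p = 3.9e-05). Per1, a clock gene that CREB also drives, was the other, at 123, 101 and 119.8 CPM against 78.2, 76.7 and 69.7 CPM (0.62, SE 0.07, adjusted p = 8.4e-05). In both genes the groups stood well apart. Egr3, which acts in the same family as Egr1 and Egr2, was at 346, 228 and 329.5 CPM in SB4 and at 165, 167 and 170.2 CPM in BS2, with replicate 2 again the lowest (0.85, SE 0.17, adjusted p = 0.171). Jun, the founding AP-1 partner, was at 36.2, 30.4 and 53.0 CPM against 52.0, 48.0 and 39.5 CPM and overlapped (-0.22, SE 0.25, adjusted p = 0.806).

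SB4 replicate 2 was also the lowest SB4 library for 34 of the 43 rapid response genes and for 19 of 22 neuronal activity effector genes, which encode proteins such as Homer1, Bdnf and Nptx2 that neurons make after activity. For 30 upstream regulators (receptors, kinases and bound factors that signal to these promoters) it was the lowest for 13, and SB4 replicate 1 was so for 13 as well. For 12 heat shock genes replicate 2 was the lowest for 8. Its share over all genes tested was 34%. None of the effector genes, the regulators or the heat shock genes was called between SB4 and BS2 by edgeR or DESeq2 (7, 10 and 2 genes at an unadjusted p under 0.05, against 11.9% of all genes), and their median log2 fold changes were 0.08, 0.03 and 0.08. At the adjusted p alone, 1 effector gene (Nptx1, 0.27) and 2 regulators (the NMDA receptor subunit Grin1, 0.25, and the kinase gene Rps6ka2, 0.30) were higher in SB4, against 0.571% of all genes. Without SB4 replicate 2, the rapid response genes called were 5, namely Csrnp1, Cyr61, Egr3, Sik1 and Trib1, all higher in SB4 and among the 25 of all genes (0.151%) that this fit called higher. That fit leaves out the library that was lowest for most of this list, so these calls are no support either.

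Between SB2 and BS6, the bone-rich pair, none of the 10 genes was called, against 0.741% of the 16329 genes tested higher and 1.11% lower. Of the 10 genes, 3 did not overlap and were higher in SB2 (Junb, Egr1 and Npas4, against 17.2% of all genes), and Dusp1 did not overlap and was lower (against 20.9%). These counts lie within 2 genes of what the shares of all genes would give for 10 genes. Junb passed the adjusted p with a fold change under the threshold, and 3.42% of all genes were higher in SB2 at this p whatever their fold change. At an unadjusted p under 0.05, 6 of the 10 genes and 4764 of all genes (29.2%) passed, and DESeq2 called 1 of the 10, Fosb, higher (2.01% of all genes were higher and 4.73% lower). The median log2 fold change was 0.51 over the 10 genes and -0.02 over all genes tested.

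Among the AP-1 genes, Junb was at 137, 105 and 115 CPM in SB2 and at 77.0, 82.6 and 68.9 CPM in BS6. Every SB2 library was above every BS6 library, and the log2 fold change was 0.68 (SE 0.13, adjusted p = 0.0412 by edgeR). Without any library of SB2, or without BS6 replicate 1 or 3, its adjusted p was between 0.0809 and 0.183. Fos was at 46.8, 32.6 and 61.5 CPM against 32.7, 18.4 and 30.7 CPM, with SB2 replicate 2 just under BS6 replicate 1 (0.82, SE 0.30, adjusted p = 0.139). Fosb was at 6.76, 5.38 and 21.5 CPM against 5.87, 2.06 and 3.23 CPM. Its log2 fold change of 1.63 (SE 0.65, adjusted p = 0.159) rested on SB2 replicate 3 and was 0.74 without that library. DESeq2 gave the same log2 fold change with an adjusted p of 0.0462.

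Egr1 was at 86.3, 58.1 and 75.1 CPM in SB2 and at 52.0, 37.4 and 53.3 CPM in BS6, without overlap (0.65, SE 0.20, adjusted p = 0.0957). Egr2 was at 3.30, 2.62 and 3.57 CPM against 9.54, 2.94 and 2.33 CPM, so that BS6 replicate 1 alone was high (-0.60, SE 0.56). Without that library the difference of Egr2 turned to 0.29. Npas4 was at 2.90, 4.07 and 3.69 CPM against 2.47, 1.81 and 1.42 CPM. These low levels, from 22 to 62 counts per library, did not overlap (0.93, SE 0.29, adjusted p = 0.102). Nr4a1 was at 28.3, 25.9 and 19.3 CPM against 21.9, 15.4 and 20.6 CPM and overlapped (0.38, SE 0.20, adjusted p = 0.260).

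Ier2 was at 35.7, 25.8 and 28.7 CPM in SB2 and at 28.7, 78.0 and 30.6 CPM in BS6. BS6 replicate 2 stood apart, and the log2 fold change of -0.57 (SE 0.41) became 0.05 without it. In that library the neutrophil lineage sum was 24492 CPM, against 1398 and 3332 CPM in the other two BS6 libraries and 826 to 1473 CPM in SB2, and its osteoblast and osteocyte sum was the lowest of the bone-rich libraries, at 23257 CPM. Whether these markers and Ier2 are linked was not tested. Arc was at 1.31, 0.656 and 0.363 CPM in SB2 and at 0.867, 0.750 and 0.453 CPM in BS6, from 6 to 23 counts per library, and no difference was detectable at this depth (0.21, SE 0.53). Dusp1 was at 43.7, 44.6 and 45.0 CPM against 47.3, 58.3 and 64.2 CPM. It was lower in every SB2 library by a little (-0.32, SE 0.13, adjusted p = 0.167).

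Among the other lists, 1 rapid response gene of 42 tested was called between SB2 and BS6, as was 1 of 12 heat shock genes. Of all genes, 0.741% were called higher and 1.11% lower. At an unadjusted p under 0.05, 16 of the 42 passed, against 29.2% of all genes. DESeq2 called 3 rapid response genes higher and 1 lower, against 2.01% and 4.73% of all genes. The rapid response gene called by edgeR was Ptgs2, the inducible cyclooxygenase that makes prostaglandins. It was at 95.8, 31.9 and 64.4 CPM in SB2 and at 9.27, 12.4 and 17.5 CPM in BS6 (2.32, SE 0.44, adjusted p = 0.0409). The groups did not overlap, but SB2 ranged widely, and the call was lost without each library in turn. The mitochondrial chaperone gene Hspd1, 1 of 12 heat shock genes, was called at 234, 185.5 and 219 CPM against 113, 94.8 and 95.4 CPM (1.10, SE 0.13, adjusted p = 0.0276). This call was kept without BS6 replicate 2 and lost without any other library. None of 17 effector genes and 30 regulators tested was called by edgeR, with 6 and 4 at an unadjusted p under 0.05, against 29.2% of all genes. DESeq2 called 1 effector gene higher and 2 lower, and 1 regulator lower, against 2.01% of all genes higher and 4.73% lower. The erythroid sum over 5 genes was 1239 to 4445 CPM in SB2 and 7673 to 12616 CPM in BS6, and the B cell sum over 6 genes 21.4 to 32.3 against 35.6 to 87.5 CPM. Neither pair of sums overlapped, nor did the lower endothelial sum in SB2 (843 to 894 against 938 to 1053 CPM) and that of thalamus and hindbrain markers (298 to 320.5 against 396 to 519 CPM). The heat shock sum was higher in SB2 without overlap (992 to 1260 against 729 to 799.6 CPM, a ratio of 1.47), and 6 of its 12 genes, all higher in SB2, had an unadjusted p under 0.05, against 29.2% of all genes in either direction. The skeletal muscle sum overlapped, with 1469, 1688 and 219 CPM in SB2 and 61.7, 48.0 and 380.04 CPM in BS6, and its means had a ratio of 6.89. Of 106 markers tested, the neuronal Tubb3 was called higher in SB2 (1.14, adjusted p = 0.0458 by edgeR), and C1qb was lower past the adjusted p alone (-0.55, adjusted p = 0.0459). The part of these marker differences in the results of this pair was not tested.

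Across days within a label, the change was also a change between brain-rich and bone-rich libraries. In SB4 against SB2, 5 of the 10 genes were called higher (27.8% of the 17293 genes tested) and 1 lower (28.6%). The largest rises were those of Arc by 8.73 (SE 0.77), Npas4 by 3.22 (SE 0.29), Nr4a1 by 2.94 (SE 0.33), Egr1 by 2.45 (SE 0.28) and Egr2 by 2.41 (SE 0.58) on the log2 scale, with adjusted p-values of at most 0.0108. The call of Egr2 was lost without SB2 replicate 1 (2.44, adjusted p = 0.0555 by edgeR) or replicate 2 (2.30, adjusted p = 0.0522). Ier2 fell by 1.34 (SE 0.23), with an adjusted p of 0.000749 by edgeR, and Junb was lower by less than the threshold (-0.70, SE 0.20, adjusted p = 0.0188). Junb did not pass without SB2 replicate 1 (adjusted p = 0.0792 by edgeR), SB2 replicate 3 (0.0539) or SB4 replicate 3 (0.0585). Fos (-0.17, SE 0.41), Fosb (0.60, SE 0.59) and Dusp1 (0.30, SE 0.20) did not pass. Fosb was at 1.48 and called without SB2 replicate 3 (adjusted p = 2.0e-05 by edgeR), at 0.32 without SB2 replicate 1 and at 0.27 without replicate 2. Dusp1 was at 0.52 without SB4 replicate 2, past the adjusted p (0.00092 by edgeR) but not the fold change threshold, and at 0.12 without SB4 replicate 1.

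In BS6 against BS2, which shares no library with that comparison, 3 of the 10 genes were called higher (29% of the 17311 genes tested) and 5 lower (26.5%). Ier2 rose by 3.01 (SE 0.44), Junb by 1.07 (SE 0.13) and Dusp1 by 1.03 (SE 0.14) on the log2 scale. The rise of Ier2 was 2.39 without BS6 replicate 2 and was still called (adjusted p = 2.4e-07 by edgeR). Junb and Dusp1 stood close to the fold change threshold: Junb fell short of it without BS2 replicate 1 (0.99), and Dusp1 without BS2 replicate 2 (0.97), BS2 replicate 3 (0.99) or BS6 replicate 3 (0.93), all still past the adjusted p. Arc fell by 7.01 (SE 0.23), Npas4 fell by 3.57 (SE 0.23), Egr1 fell by 2.33 (SE 0.16), Nr4a1 fell by 2.097 (SE 0.15) and Fosb fell by 1.43 (SE 0.37). All 8 passed edgeR's test, with adjusted p-values of at most 0.0120. Fos (0.54, SE 0.23, adjusted p = 0.0706) and Egr2 (-0.57, SE 0.54, adjusted p = 0.369) did not pass. Fos was at 0.77 without BS6 replicate 2, past the adjusted p (0.00020 by edgeR) but not the fold change threshold. Without BS6 replicate 1, Egr2 was called at -1.46 (adjusted p = 0.0024 by edgeR), and without BS6 replicate 2 or 3 it was at -0.29 and -0.23.

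How far the 10 genes followed the tissue is given by the mean CPM of the 6 bone-rich libraries as a percentage of the mean of the 6 brain-rich ones. The percentage was 0.344% for Arc, near the 0.823% of the neuronal marker sum, then 9.80% for Npas4, 16.2% for Nr4a1, 18.9% for Egr1, 33.4% for Egr2 and 55.3% for Fosb. Without SB2 replicate 3, the percentage of Fosb was 34.5%. Fos and Dusp1 stood at 123% each, Junb at 179% and Ier2 at 431%. Each mean pools 2 groups that differed. Dusp1 was lower in SB2 than in SB4 (means of 44.4 and 54.4 CPM) but higher in BS6 than in BS2 (56.6 and 27.8 CPM). Egr2 stood at 3.16 CPM in SB2 against 16.9 CPM in SB4, and at 4.94 CPM in BS6 against 7.31 CPM in BS2. For Fosb these means were 11.2 against 16.95 and 3.72 against 10.1 CPM. The order of Egr2 and Fosb thus turned between the labels. Of the 22 effector genes, which like Arc are known from active neurons, 16 were called higher and 4 lower in SB4 against SB2 (27.8% and 28.6% of all genes), and 3 were called higher and 16 lower in BS6 against BS2 (29% and 26.5%). Of the 43 rapid response genes, 7 were called higher and 19 lower in SB4 against SB2, and 24 higher and 4 lower in BS6 against BS2, against the same shares of all genes.

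Whether the change from the earlier to the later group differed between the pairs was tested by a contrast in the fit of 12 libraries, SB4 minus BS2 in the brain-rich pair less BS6 minus SB2 in the bone-rich pair. It passed at an adjusted p under 0.05 for 4 of the 10 genes, all above 0, against 2.15% of the 18068 genes tested. Junb had a difference of 1.66 on the log2 scale (SE 0.25, adjusted p = 0.0112), Nr4a1 of 1.52 (SE 0.33, adjusted p = 0.0346), Egr1 of 1.35 (SE 0.31, adjusted p = 0.0409) and Fos of 1.94 (SE 0.47, adjusted p = 0.0460). Their levels were higher in the later group SB4 of the brain-rich pair and lower in the later group BS6 of the bone-rich pair. By its arithmetic this contrast is also the sum of SB minus BS over both pairs, and these 4 genes had a higher mean in SB in each pair, so it does not tell a change by day that differs between pairs from a difference by label that they share. The other 6 genes did not pass, although Fosb had the largest difference (2.35, SE 0.70, adjusted p = 0.0863) and Npas4 was at 1.43 (SE 0.38, adjusted p = 0.0598). Only Junb passed without each library in turn. Fos, Egr1 and Nr4a1 lost the call without any BS2 library, SB2 replicate 1 or SB4 replicate 1 or 3, Fos and Egr1 also without SB2 replicate 3, Fos without BS6 replicate 2 and Nr4a1 without SB2 replicate 2, with adjusted p-values up to 0.112. Other genes passed without 1 library: Fosb (2.88) and Npas4 (1.71) without BS6 replicate 1, Npas4 (1.68) and Arc (2.43) without SB4 replicate 2, and Ier2 (1.08) without BS6 replicate 2. Without SB2 replicate 3 the difference of Fosb was 1.46.

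The same 4 groups can be read by label instead of by day, as SB minus BS in each pair, and this contrast was added after the values had been seen. It passed for Dusp1 alone, 1.31 (SE 0.26, adjusted p = 0.0156), against 4.23% of all genes above 0. Dusp1 was higher in SB4 than in BS2 and lower in SB2 than in BS6, which is a higher mean in the later group of each pair. Ier2 had 1.67 (SE 0.53, adjusted p = 0.0767), Egr2 1.84 (SE 0.79, adjusted p = 0.171) and Arc 1.72 (SE 0.79, adjusted p = 0.196). Without BS6 replicate 2 the value of Ier2 was 1.04 and passed (adjusted p = 0.0339 by edgeR), as it did without BS6 replicate 1 (1.88, adjusted p = 0.0366). Without BS6 replicate 1, that of Egr2 was 0.91. Nr4a1 (0.83, SE 0.33, adjusted p = 0.140) passed without SB4 replicate 2 (1.07, adjusted p = 0.0447). For Fos (0.37, SE 0.46), Junb (0.36, SE 0.25) and Egr1 (0.11, SE 0.31) this difference did not pass. A p that misses the threshold does not show that SB minus BS was equal in both pairs.

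To order the genes within a group, CPM was divided by the exon length of the gene in kilobases. In BS2 nearly every neighbour in the order stood apart: Egr1 at 53.5, Arc at 29.4, Nr4a1 at 23.5 and Junb at 15.8 CPM per kilobase, then Dusp1 (8.40) and Fos (7.97), which overlapped, and Npas4 (5.49), Ier2 (3.73), Egr2 (2.15) and Fosb (1.61). In SB4 Arc led at 109.8 CPM per kilobase, before Egr1 (88.8), Nr4a1 (53.3), Junb (31.8), Fos (17.8) and Dusp1 (16.4). There only the step from Dusp1 to Npas4 (7.96) was free of overlap, and Ier2 (7.84), Egr2 (4.98) and Fosb (2.72) followed.

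In SB2 Junb led at 51.8 CPM per kilobase, apart from Fos (19.97), Ier2 (19.8), Egr1 (16.3) and Dusp1 (13.4), each of which overlapped the next. Nr4a1 (6.98) stood apart below them, Fosb (1.80), Egr2 (0.931) and Npas4 (0.859) overlapped each other, and Arc was last at 0.254. BS6 had Junb (33.1), Ier2 (30.1) and Dusp1 (17.1) at the top in overlapping order, then Fos (11.6) and Egr1 (10.6). Nr4a1 (5.50), the group of Egr2 (1.45), Fosb (0.596) and Npas4 (0.460), and Arc (0.226) followed.

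**Figure D4:**
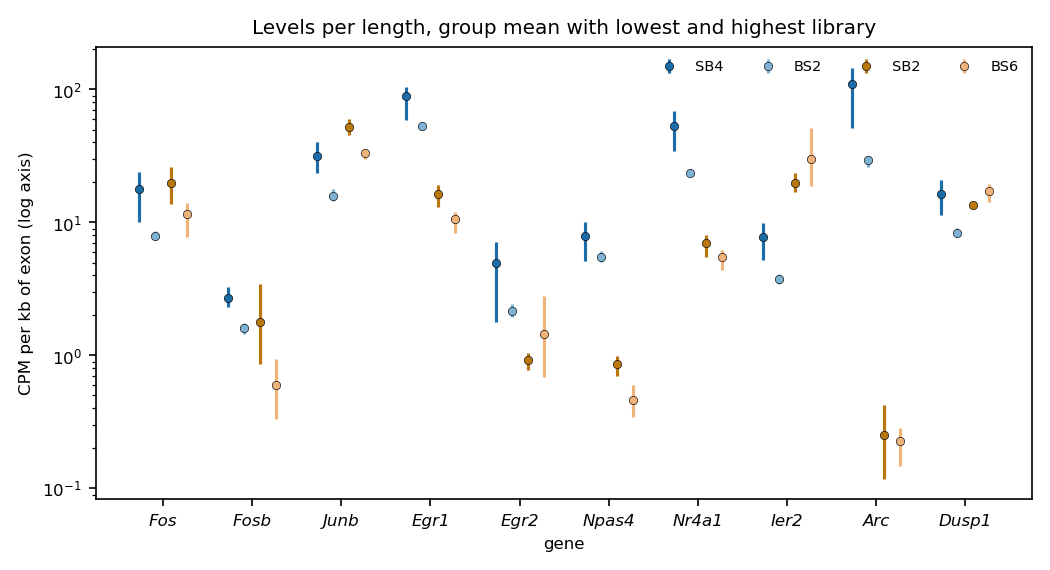
Mean level of the 10 genes in CPM per kilobase of exon (log axis) in SB4, BS2, SB2 and BS6, with lines from the lowest to the highest library. Arc and Egr1 lead in SB4 and BS2, Junb leads in SB2 and BS6, and Arc is the lowest in both bone-rich groups.

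Likeness was measured as the root mean square distance between profiles of log2(CPM + 1), centred on their mean over the 12 libraries. The libraries share their groups, so this distance is a description. Egr1 and Nr4a1 were the closest of the 10 to each other (0.254), and Npas4 was closest to Egr1 (0.398). Fos and Junb were each other's nearest (0.422), and Junb was also the nearest for Dusp1 (0.466) and Ier2 (0.726). Arc had no near neighbour, with Npas4 the closest at 1.92. Against the mean profile of the 10, the nearest of 18058 other genes were Dusp6 (0.293), 4933428G20Rik (0.302), 5330416C01Rik (0.307), Lyzl4 (0.316) and Gm44167 (0.319). Dusp6, a phosphatase of the kinase ERK, was at 134, 81.8 and 124 CPM in SB4 and at 79.1, 75.6 and 80.2 CPM in BS2. It was thus lowest of SB4 in replicate 2 as well, and it was at 43.9 to 57.3 CPM in the bone-rich libraries. The other 4 of these genes were below 5 CPM in every library.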

How the data were processed

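Libraries were made from poly(A) RNA and sequenced from both ends, per the labels. The authors trimmed reads with fastp, mapped them to mm10 with HISAT2 v2.1.0 and deposited unnormalized counts, as whole numbers for each gene symbol. The counting program, its annotation and its use of strand are not given in the sources used here, nor whether the counts precede the study's ComBat_seq step. The table had 0 columns of other samples.

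Groups were taken from sample titles, and columns were matched to them by name. Counts were compared with edgeR 4.0.16 under R 4.3.3. Genes were filtered by filterByExpr (minimum count 10) and scaled by TMM factors before robust quasi-likelihood fits of 2 groups of 3 libraries, with Benjamini-Hochberg adjustment over all genes tested. A call required an adjusted p below 0.05 and a change of more than 1 on the log2 scale, as in the study's methods. The SE is the absolute log2 fold change over the square root of F. Differences between pairs were contrasts in a fit of the 12 libraries, called at the adjusted p alone. The steps were tested on simulated data. Likeness used log2(CPM + 1). Counts are of reads without molecular identifiers. The SD and the coefficient of variation of a level are taken over the 3 libraries of a group, so they include the spread between libraries.

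The 10 genes, the lists of rapid response genes, activity effectors, upstream regulators and heat shock genes, and the markers of 17 cell types were chosen with earlier results of these data known. Of the effector genes, 22 of 24 were in the table. All 10 genes were named in every comparison. From each list, called genes in SB4 against BS2 and SB2 against BS6 with at least 1 CPM were to be named, up to 3 each way, together with the 5 genes of nearest profile. The other list genes named here were chosen after their values were seen. Alternatives were DESeq2 1.42.0, other scaling factors and filters, 1 fit of all libraries, no fold change threshold, a replicate block and leaving out each library.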

Additional observations from a re-analysis of the deposited data

Results flagged for a closer look

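The change from the earlier to the later group differed between the brain-rich pair (SB4 minus BS2) and the bone-rich pair (BS6 minus SB2) for Fos by 1.94 on the log2 scale, for Junb by 1.66, for Nr4a1 by 1.52 and for Egr1 by 1.35, each past the adjusted p of edgeR's contrast over 12 libraries. All 4 had a higher mean in SB than in BS in both pairs, and the same contrast is the sum of those 2 differences. Dusp1 was set apart by the contrast of SB minus BS between the pairs, which was chosen after the values were seen, with a difference of 1.31, and had a higher mean in the later group of both pairs. As labelled, the day, the injured site and the tissue cannot be told apart in each pair. If the labels of SB2 and BS2 were exchanged, as their marker genes leave possible, each pair would compare an earlier with a later day of 1 tissue after 1 kind of injury. SB minus BS, by the names kept here, would then be later minus earlier in the brain-rich pair and earlier minus later in the bone-rich pair. The difference of Junb held without each library in turn (1.46 to 1.84), and so did that of Dusp1 (1.11 to 1.52). No test for an outlying library was run in these groups of 3.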

How the results depend on the processing

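Which of the 10 genes were called depended on the library and the tool, while their direction in SB4 against BS2 held under all alternatives run. In SB4 against BS2, DESeq2 called 4 of the 10 genes, the fit of all 12 libraries 0 and the rule without a fold change threshold 2. Leaving out each library gave 0 to 7. Over all genes, 14 were called higher and 10 lower. DESeq2 gave 31 and 18, no filter 26 and 24, the fit of 12 libraries 3 and 5, no fold change threshold 93 and 60, and the stricter filter (10 counts or more in each library) 9 higher. Leaving out each library gave 11 to 68 higher and 7 to 47 lower. Rapid response genes called higher were 2 with DESeq2, 2 without the fold change threshold and 0 to 5 without each library, and without the fold change threshold 1 effector gene and 2 regulators were higher. In SB2 against BS6, 1 of the 10 genes was called higher with DESeq2, 1 in the fit of 12 libraries and 1 without the fold change threshold. Over all genes, 121 were called higher and 182 lower. DESeq2 gave 315 and 743, the fit of 12 libraries 326 and 947, and no fold change threshold 559 and 373. Leaving out each library gave 0 to 270 higher and 0 to 397 lower. DESeq2 called 3 rapid response genes higher and 1 lower, 1 effector gene higher and 2 lower, and 1 regulator lower, and without the fold change threshold 3 heat shock genes were higher. Without each library, the rapid response genes called were 0 to 2 higher and 0 to 1 lower, the effector genes 0 to 2 higher and the heat shock genes 0 to 1 higher. In SB4 against SB2, 2 of the 10 genes were lower without the fold change threshold, where 14400 of the 17293 genes tested passed in either direction. The contrast of later against earlier groups passed for 7 genes with DESeq2 and for 1 to 6 without each library, and the contrast of SB minus BS for 2 with DESeq2 and 1 to 2 without each library. The shares of all genes above 0 were 2.15% and 4.23% in the main fit. Those of the other fits are not given here, so these counts cannot be set against all genes. Leaving out each library for the lists, and the contrast of SB minus BS, were chosen after seeing the data. The cause was not tested for any of these.

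Signs that changed belonged to differences that had not passed. In SB2 against BS6, leaving out each library moved Egr2 from -0.94 to 0.29 (positive without BS6 replicate 1), Ier2 from -0.82 to 0.053 (positive without BS6 replicate 2) and Arc from -0.40 to 0.55 (below 0 without BS6 replicate 3, at -0.015, and SB2 replicate 1). In SB4 against SB2, Fos ran from -0.42 to 0.14 (0.074 without SB2 replicate 3 and 0.14 without SB4 replicate 2). In the contrast of SB minus BS, Egr1 ran from -0.034 to 0.33, at -0.016 without BS6 replicate 3, -0.034 without SB2 replicate 2, -0.016 without SB4 replicate 1 and -0.020 without SB4 replicate 3, and Fosb ran from -1.36 to 0.037, positive without SB2 replicate 3.

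Whether the replicate numbers pair the libraries is not given in the sources used here. Over all genes, deviations of libraries with the same number correlated at -0.131 to 0.0931, which does not settle it for single genes. In SB4 against BS2, a replicate block moved the SE of Dusp1 from 0.25 to 0.11 (adjusted p = 0.0019 by edgeR, log2 fold change 0.94) and that of Junb from 0.24 to 0.27. In SB4 against SB2 it moved the SE of Fos from 0.41 to 0.16. With the replicate block, 22 genes were called higher and 39 lower in SB4 against BS2, and 0 and 0 in SB2 against BS6. At 6 to 23 counts per library, no difference of Arc was detectable in SB2 against BS6. The labels of SB2 and BS2 go against their tissue content.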
